A study of Homo sapiens with 37 samples.

Results

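Prostaglandins are made from arachidonic acid in steps, and 8 genes of that route were followed: PLA2G4A, PTGS1, PTGS2, PTGES, PTGES2, PTGES3, PTGIS and HPGD. The members were taken by name after the Ensembl identifiers of the count files were matched to gene symbols, and all 8 were found, with 1 identifier each, among 57773 genes. Read counts per gene were available for 37 RNA-seq libraries in 17 groups of 2 or 3. They were made from 4 kinds of cultured human cell, treated or passaged in different ways as models of senescence, a lasting arrest of growth. The cells were HAEC (aortic endothelium, population doubling level, PDL, 4 to 6), HUVEC (umbilical vein endothelium, PDL 3 to 5) and the lung fibroblast strains IMR-90 and WI-38. HAEC (2 control and 3 irradiated libraries) and HUVEC (3 and 3) received 4 Gy of ionising radiation. IMR-90 at PDL 15 were the proliferating reference both for cells given 10 Gy and for cells at PDL 52 (2 libraries each). WI-38 at PDL 25 were treated with doxorubicin, a DNA-damaging drug, at 2 µg/mL for 24 h, or transduced with a lentivirus at 10 MOI that carried the oncogene HRASG12V or nothing, both selected with puromycin at 1 µg/mL. A second WI-38 set held a repeat of the doxorubicin treatment, cells given 10 Gy, and cells at PDL 53 to 55 beside cells at PDL 25, each with its own control, and 2 libraries in every group.

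Cytosolic phospholipase A2 (PLA2G4A) frees arachidonic acid from membranes, and the cyclooxygenases COX-1 (PTGS1) and COX-2 (PTGS2) turn it into prostaglandin H2. COX-1 is known as the constitutive form and COX-2 as the form induced by cytokines, growth factors and stress. Terminal synthases then act on prostaglandin H2: PTGES (the inducible microsomal enzyme), PTGES2 and PTGES3 give prostaglandin E2, PTGIS gives prostacyclin, the vasodilator that endothelium is known for, and HPGD, 15-hydroxyprostaglandin dehydrogenase, inactivates prostaglandins.

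The upstream sequences of 4 members are shown because these genes moved together in some models and apart in others. RefSeq on GRCh38.p14 had promoter entries for 7 of the 8 members, and PTGIS was not among them. Each line gives the 250 bases before the first listed start, 5′ to 3′, and capitals mark matches on either strand to TATAAA (the TATA box), TGACG (the core of the cAMP response element), TTNNGNAAT (a C/EBP pattern), GGGCGG (the GC box) or the NF-kB consensus.
PTGS2, chr1:186680424-186680673, minus strand: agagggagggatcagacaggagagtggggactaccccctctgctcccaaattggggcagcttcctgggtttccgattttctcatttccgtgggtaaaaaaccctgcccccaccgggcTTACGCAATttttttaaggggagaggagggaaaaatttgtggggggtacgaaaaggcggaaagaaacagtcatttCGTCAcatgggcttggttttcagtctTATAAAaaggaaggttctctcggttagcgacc
PLA2G4A, chr1:186828699-186828948, plus strand: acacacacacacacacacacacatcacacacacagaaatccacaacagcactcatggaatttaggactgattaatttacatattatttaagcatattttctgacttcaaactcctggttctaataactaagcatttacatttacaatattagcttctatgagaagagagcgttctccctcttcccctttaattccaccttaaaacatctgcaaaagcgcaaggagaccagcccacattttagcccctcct
PTGS1, chr9:122370283-122370532, plus strand: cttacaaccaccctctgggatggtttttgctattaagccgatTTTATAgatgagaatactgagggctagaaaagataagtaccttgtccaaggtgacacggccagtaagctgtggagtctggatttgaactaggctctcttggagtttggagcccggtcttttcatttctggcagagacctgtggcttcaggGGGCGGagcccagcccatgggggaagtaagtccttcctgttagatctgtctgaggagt
PTGES, chr9:129753043-129753292, minus strand: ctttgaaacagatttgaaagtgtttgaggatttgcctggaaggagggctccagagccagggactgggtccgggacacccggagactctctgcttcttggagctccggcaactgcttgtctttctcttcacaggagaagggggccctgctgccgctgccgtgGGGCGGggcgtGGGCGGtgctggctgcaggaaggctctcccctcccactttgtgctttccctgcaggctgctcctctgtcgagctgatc
PTGS2 held a TATA box 32 to 27 bases before the start, a cAMP response core at 58 to 54 bases and a C/EBP match at 133 to 125 bases. PTGS1 held a GC box at 58 to 53 bases and the TATAAA letters on the opposite strand at 208 to 203 bases, PTGES held GC boxes at 89 to 84 and 78 to 73 bases, and no searched letters stood in the PLA2G4A window. No matches overlapped in these windows. Of 35116 upstream windows of the same length, 10.7% held TATAAA, 21.2% TGACG, 9.85% the C/EBP pattern, 42.6% GGGCGG and 5.21% the NF-kB consensus. The matches describe letters only. No window shown matched the NF-kB consensus, and a site that departs from the searched letters is left unmarked. PTGS2 and PLA2G4A lie side by side on chromosome 1 (GRCh38 positions 186671791 to 186680427 and 186828953 to 186988981, GENCODE 29), with the long non-coding RNA gene PACERR between them.

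Outside the second WI-38 set, the 25 libraries held 102293388 to 202974994 counts, of which 50.7% to 66.9% fell in protein-coding genes. The 12 of the second WI-38 set held 205854972 to 370996204, with 82.0% to 91.1% in protein-coding genes, so levels are compared within 1 kind of library only. HRAS stood at 36.1 and 47.0 CPM (counts per 1000000 of the TMM-scaled library size) with the empty vector and at 1944 and 1989 CPM in the HRAS libraries. The 6 matched endothelial markers summed to 1127 to 1506 CPM in HAEC and HUVEC and to 12.8 to 306 CPM in the fibroblasts, most of it TEK, and the 7 fibroblast markers to 15.3 to 37.3 CPM and 881 to 14800 CPM. Leukocyte markers summed to at most 4.18 CPM and epithelial markers to at most 0.957 CPM in any library. In bulk RNA, fewer cells of a type and less RNA per cell cannot be told apart. In irradiated endothelium the proliferation gene MKI67 fell without being lost, at 57.15, 51.8 and 56.9 CPM in HAEC against 159.8 and 161.5 in controls. HUVEC had 98.8, 90.85 and 89.95 CPM against 137.6, 133.4 and 139.3. Whether these cells had stopped dividing was not tested. The IMR-90 libraries went against their labels in one respect, since MKI67 was at 19.8 and 17.4 CPM in the proliferating cells, 31.3 and 28.0 after 10 Gy and 22.4 and 17.7 at PDL 52. The cell-cycle inhibitor gene CDKN1A went with the labels there, at 203 and 194 CPM at PDL 15, 700 and 698 after 10 Gy and 607 and 451 at PDL 52. In the doxorubicin repeat CDKN1A overlapped, at 1886 and 2017 CPM against 1683 and 1983 in controls. Both PDL 15 libraries also had CXCL8 at 141 and 127 CPM against 1.17 to 4.15 CPM in the other 4 IMR-90 libraries, and FOS at 29.2 and 16.1 against 0.925 to 1.24. Every IMR-90 result rests on these 2 reference libraries, and the part of that state in the results was not tested. The fibroblast markers also moved: of 7, 7 were called lower after 10 Gy in IMR-90, 6 lower and 1 higher at PDL 52, 7 lower with HRAS, 5 higher with doxorubicin in the first WI-38 experiment, 3 higher in the repeat, 2 higher after 10 Gy in WI-38 and 2 lower at late passage there. Of 5 smooth muscle markers, 5 were lower with HRAS and 3 with doxorubicin in the first experiment, and their sum was 571 to 611 CPM in IMR-90 at PDL 15, 1875 to 1918 after 10 Gy and 2025 to 2537 at PDL 52. In IMR-90, 3 of them were called higher and 1 lower after 10 Gy, and 3 higher and 2 lower at PDL 52. In WI-38, 2 were lower after 10 Gy and 1 at late passage. In irradiated endothelium, 2 smooth muscle markers were called higher in HAEC and 2 in HUVEC. Their sum went from 32.5 to 36.3 CPM in control HAEC to 58.0 to 61.4 CPM after 4 Gy. Of 6 endothelial markers, 3 were higher in HAEC, and 4 were higher and 1 lower in HUVEC. Of 7 fibroblast markers, 2 were lower in HAEC and 0 were called in HUVEC. The part of these markers in the members' changes was not tested, and the shares of all genes called in each comparison are given below with the members' counts.

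The genes for prostaglandin synthesis went in different directions in different models. In WI-38, PTGS2 rose with HRAS, with doxorubicin in both experiments and after 10 Gy, and its change at late passage did not pass the test. In IMR-90, PLA2G4A, PTGS1, PTGS2, PTGES and PTGIS all fell, both after 10 Gy and at PDL 52, relative to the same PDL 15 cells. In endothelium PTGIS rose with radiation while most other tested members fell slightly, and PTGS1 fell in HAEC but rose in HUVEC. HPGD was close to 0 in every library and was never tested, so at most 7 members entered a test. Members were called at an adjusted p below 0.05 (edgeR quasi-likelihood test, Benjamini-Hochberg over all genes tested). Whether replicates came from separate cultures is not in the labels, and the p-values then measure only the spread between these libraries, which may be technical.

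In HAEC after 4 Gy, 1 of 6 tested members was called higher and 4 lower, where 19.7% of all 28024 tested genes were higher and 19.9% lower. In HUVEC after 4 Gy, 2 of 6 were higher and 4 lower, against 18.6% and 20.1% of all genes. IMR-90 after 10 Gy had 2 of 7 higher and 5 lower, against 26.6% and 22.5% of all genes. At PDL 52 the counts were again 2 and 5 of 7, against 26.6% and 23.5%. The tested members had a median log2 fold change of -0.29 for HAEC, -0.17 for HUVEC, -2.88 for irradiated IMR-90 and -3.11 at PDL 52, with medians over all tested genes between -0.039 and 0.014.

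Among WI-38 cells, the first doxorubicin experiment had 4 of 7 members higher and 1 lower, against 13.6% and 13.2% of all genes. With HRAS, 4 of 7 were higher and 3 lower, against 27.1% and 18.9%. The repeat of doxorubicin had 2 of 7 higher and 0 lower, against 3.18% and 2.26%. After 10 Gy, 4 of 7 were higher and 0 lower, against 8.89% and 6.09%. In both of these edgeR comparisons 0 members were lower at an unadjusted p under 0.05 too, and DESeq2 called 2 and 4 members in all. At PDL 53 to 55, 1 was higher and 2 were lower, against 5.8% and 6.82%. The members' median log2 fold changes were 0.93, 0.67, 0.33, 1.17 and 0.27 in that order, beside medians over all genes of 0.015, 0.071, 0.036, -0.064 and 0.013. In a single fit of all 37 libraries, with 1 shared estimate of the spread, fewer members were called in endothelium and IMR-90 and more in the doxorubicin repeat. There, 3 members were called in HAEC (10.8% of all genes), 2 in HUVEC (8.93%), 5 in each IMR-90 comparison (24.9% and 25.4%) and 4 in the doxorubicin repeat (17.7%).

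**Figure D1:**
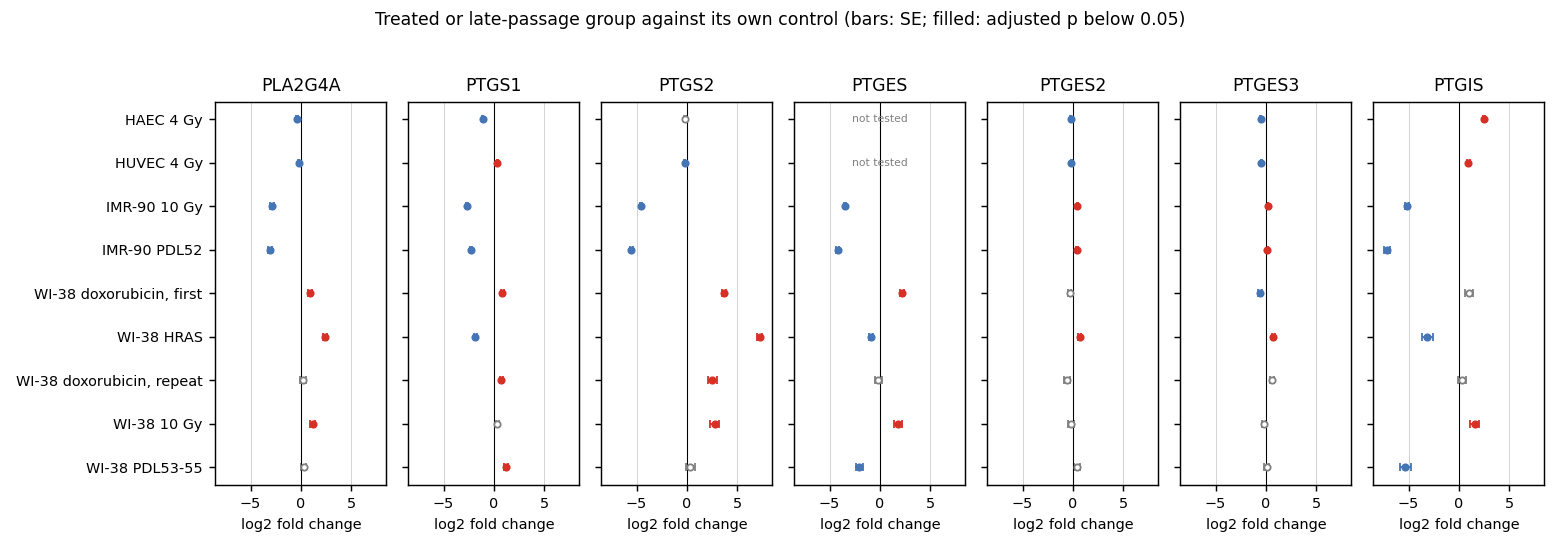
Log2 fold change of each tested member (x axis, 1 panel a gene) in the 9 comparisons with the own control (y axis); bars are standard errors, filled points have an adjusted p below 0.05, and red points are higher and blue points lower. PTGS2 runs from -5.50 at PDL 52 in IMR-90 to 7.22 with HRAS in WI-38.

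PLA2G4A, the phospholipase at the head of the route, stood at 27.6 and 28.6 CPM in IMR-90 at PDL 15, at 3.66 and 4.00 after 10 Gy and at 2.24 and 4.33 at PDL 52. It was 7.35-fold lower after 10 Gy (log2 -2.88, SE 0.19, adjusted p = 1.78e-08) and 8.61-fold lower at PDL 52 (log2 -3.11, SE 0.19, adjusted p = 9.54e-09). Neither treated group overlapped the reference, and the 2 PDL 52 libraries lay on both sides of the irradiated pair. In WI-38 the level was 0.925 and 0.753 CPM with the empty vector and 4.93 and 3.91 with HRAS, a 5.25-fold rise (log2 2.39, SE 0.20, adjusted p = 1.38e-06). Doxorubicin in the first experiment raised it from 3.501 and 3.55 CPM to 7.37 and 6.10 CPM (log2 0.93, SE 0.18, adjusted p = 0.00224), and the groups did not overlap. These untreated controls stood well above the empty vector, from whose low level the HRAS rise was measured.

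After 10 Gy in WI-38, PLA2G4A went from 1.08 and 1.40 CPM to 3.43 and 2.14 CPM (log2 1.17, SE 0.29, adjusted p = 0.0128). That call was lost without control replicate 1 (adjusted p = 0.136), without irradiated replicate 1 (adjusted p = 0.101, log2 0.75) and in a fit of the compared groups only (adjusted p = 0.0716). The changes with the doxorubicin repeat (log2 0.23, SE 0.28) and at late passage (log2 0.27, SE 0.28) did not pass the test, at adjusted p = 0.735 and 0.602. In endothelium the falls were small. HAEC went from 19.8 and 19.4 CPM to 13.97, 16.01 and 15.4 (log2 -0.37, SE 0.060, adjusted p = 3.68e-05), and HUVEC from 22.3, 25.1 and 24.6 to 20.6, 20.5 and 21.3 (log2 -0.20, SE 0.049, adjusted p = 0.00152), with all irradiated libraries below all controls in both. Neither call held in the fit of all 37 libraries, at adjusted p = 0.376 and 0.602.

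PTGS1, the constitutive cyclooxygenase, was highest among the first 25 libraries in IMR-90 at PDL 15, at 346 and 303 CPM. It stood at 53.05 and 51.6 CPM after 10 Gy and at 60.3 and 74.6 CPM at PDL 52. The falls were 6.19-fold (log2 -2.63, SE 0.093, adjusted p = 3.32e-11) and 4.80-fold (log2 -2.26, SE 0.092, adjusted p = 1.11e-10), and neither group came near the reference. HRAS lowered PTGS1 in WI-38 from 71.8 and 92.1 CPM to 20.2 and 25.1 CPM, a 3.62-fold fall without overlap (log2 -1.86, SE 0.15, adjusted p = 1.46e-06).

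In the other WI-38 models, PTGS1 rose or did not pass the test. The first doxorubicin experiment had 55.2 and 55.9 CPM in controls and 98.2 and 98.4 CPM in treated cells (log2 0.82, SE 0.15, adjusted p = 0.00148). The repeat had 133 and 161 CPM in controls and 268 and 226 CPM in treated cells (log2 0.75, SE 0.18, adjusted p = 0.0272). Treated libraries lay above controls in both experiments, but the call in the repeat was lost without control replicate 1 (adjusted p = 0.251), without treated replicate 1 (adjusted p = 0.156) and in the fit of the compared groups only (adjusted p = 0.121). The highest level of the second set was at PDL 53 to 55, with 431 and 463 CPM against 208 and 188 CPM at PDL 25 (log2 1.18, SE 0.18, adjusted p = 6.19e-04), again without overlap. After 10 Gy the values were 188 and 209 CPM in controls and 236 and 273 CPM in irradiated cells (log2 0.36, SE 0.18, adjusted p = 0.205).

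PTGS1 responded in opposite directions in the 2 kinds of endothelium. Control HAEC stood at 75.0 and 75.0 CPM and irradiated HAEC at 34.99, 35.2 and 34.7 CPM, a 2.15-fold fall (log2 -1.10, SE 0.036, adjusted p = 1.12e-15). Control HUVEC stood at 27.3, 26.6 and 25.03 CPM and irradiated HUVEC at 32.4, 33.8 and 33.8 CPM (log2 0.34, SE 0.043, adjusted p = 5.11e-07; adjusted p = 0.0606 in the fit of all 37 libraries). Irradiated HAEC thus came close to the irradiated HUVEC level, with the lowest HAEC library at 34.7 and the highest HUVEC library at 33.8 CPM. Of the 6 members tested for a difference between the responses, 2 were called, PTGS1 and PTGIS, against 18% of all genes, and the PTGS1 response was 1.44 log2 units higher in HUVEC (SE 0.058, adjusted p = 3.56e-16).

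PTGS2, the inducible cyclooxygenase, gave the widest range of responses. With the empty vector it stood at 0.462 and 0.348 CPM and with HRAS at 67.0 and 55.1 CPM, a 149-fold rise (log2 7.22, SE 0.23, adjusted p = 1.54e-09). In the first doxorubicin experiment it rose 13.02-fold, from 1.49 and 1.98 CPM to 21.2 and 24.0 CPM (log2 3.70, SE 0.19, adjusted p = 5.14e-08). Treated libraries stood far above controls in both models, and in both the cytokine gene CXCL8 was also higher, at 1581 and 999 CPM with HRAS against 1.97 and 1.90, and at 302 and 341 CPM with doxorubicin against 4.40 and 9.36. The cytokine gene IL1B was at 539 CPM in both HRAS libraries and at 0.685 and 0.782 CPM with the empty vector.

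The repeat of doxorubicin gave 17.4 and 64.2 CPM of PTGS2 in treated libraries and 5.58 and 8.65 CPM in controls (log2 2.52, SE 0.45, adjusted p = 0.00465). The treated libraries were well apart, and treated replicate 2, the higher one, also had FOS at 58.4 and EGR1 at 86.5 CPM, beside 5.27 and 25.9 CPM in replicate 1. In the controls the order was the opposite: replicate 1 had the higher FOS and EGR1, at 27.4 and 31.6 CPM against 9.01 and 23.1, and the lower PTGS2. The part of that state was not tested. Without treated replicate 2 the log2 fold change was 1.29 (adjusted p = 0.0479), without treated replicate 1 it was 3.18, and without control replicate 1 the call was lost (log2 2.24, adjusted p = 0.0539). After 10 Gy, PTGS2 rose 6.77-fold, from 0.659 and 0.668 CPM to 5.61 and 3.38 CPM (log2 2.76, SE 0.47, adjusted p = 9.93e-04), with no overlap. FOS was at 17.1 and 20.1 CPM in these irradiated libraries against 0.867 and 0.603 in their controls, and EGR1 at 46.2 and 58.4 against 16.6 and 21.45. CXCL8 was at 4.51 and 4.60 CPM against 0.124 and 0.0287, and MKI67 at 10.8 and 7.71 against 189 and 213. The part of these differences in the PTGS2 rise was not tested. Mitochondrial genes took 9.71% and 14.02% of counts in the irradiated libraries and 6.31% and 6.99% in their controls, and 8.71% and 5.78% at late passage against 3.21% and 4.41% at PDL 25, and their part in the results was not tested. Late passage gave 8.31 and 10.9 CPM against 7.23 and 7.71 CPM, a difference inside the error (log2 0.36, SE 0.43, adjusted p = 0.665).

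IMR-90 at PDL 15 held the highest PTGS2 level of the first 25 libraries, at 114 and 94.0 CPM. After 10 Gy the gene was at 4.13 and 4.57 CPM, 24.0-fold lower (log2 -4.58, SE 0.10, adjusted p = 5.88e-13), and at PDL 52 at 2.14 and 2.47 CPM, 45.3-fold lower (log2 -5.50, SE 0.11, adjusted p = 1.78e-13). The groups lay far apart, in the same direction as CXCL8 in these libraries. In endothelium PTGS2 barely moved. HAEC had 8.53 and 9.76 CPM before and 8.16, 8.53 and 7.69 CPM after 4 Gy, a difference that did not pass the test (log2 -0.17, SE 0.079, adjusted p = 0.103; called without control replicate 1, at adjusted p = 0.036). HUVEC went from 11.6, 11.9 and 12.8 CPM to 11.2, 10.3 and 10.1 CPM (log2 -0.20, SE 0.062, adjusted p = 0.0132), a call lost without control replicate 3 (adjusted p = 0.0754), without irradiated replicate 3 (adjusted p = 0.0612) and in the fit of all 37 libraries (adjusted p = 0.778).

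**Figure D2:**
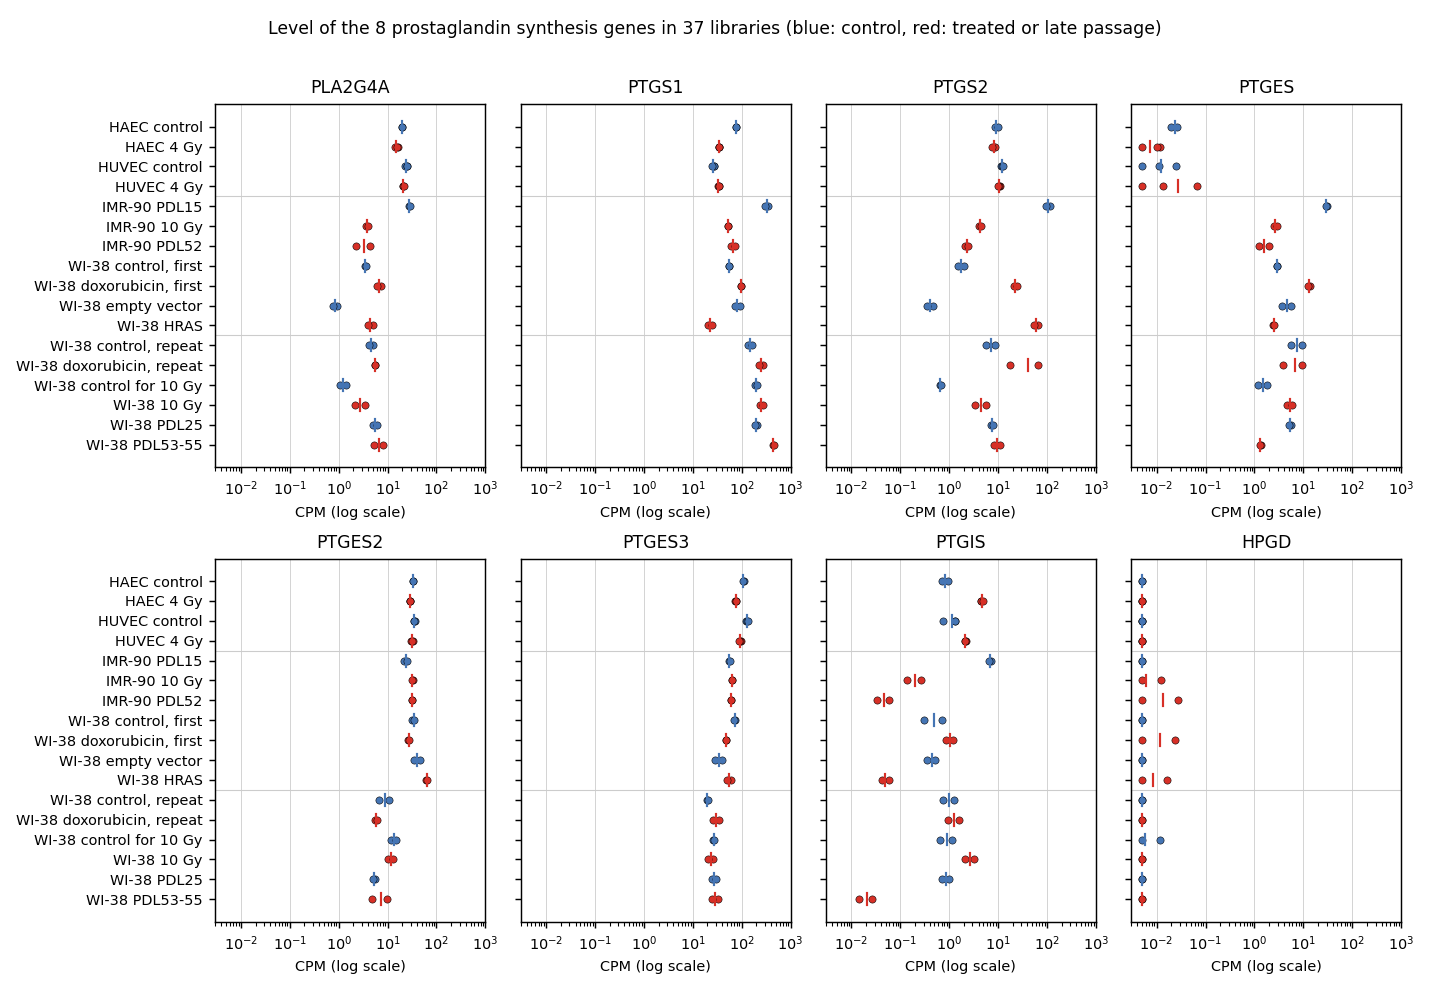
Level of each member in CPM (x axis, log scale, 1 panel a gene) in the 17 groups (y axis); points are libraries, vertical ticks are group means, blue is control, red is treated or late passage, values under 0.005 CPM are drawn at 0.005, and grey lines separate endothelium, the first fibroblast libraries and the second WI-38 set. PTGS2 is at 114 and 94.0 CPM in IMR-90 PDL 15 and at 67.0 and 55.1 CPM with HRAS, the 2 highest groups of the first kind of library, and HPGD is at most 0.0268 CPM.

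The order of PTGS2 among the first 11 groups ran from IMR-90 at PDL 15 (mean 104 CPM) through WI-38 with HRAS (61.1), WI-38 with doxorubicin (22.6), HUVEC control (12.1), HUVEC irradiated (10.53), HAEC control (9.14), HAEC irradiated (8.12), IMR-90 after 10 Gy (4.35), IMR-90 at PDL 52 (2.30) and WI-38 control (1.73) to the empty vector (0.405). No neighbours in that order had overlapping libraries, although each group had only 2 or 3 and each set of cells was TMM-scaled on its own. The 2 HAEC groups all but touched, with the lowest control at 8.529 CPM and the highest irradiated library at 8.526 CPM. With no TMM factor those libraries stood at 8.374 and 8.518 CPM, so the groups overlapped. In the second set the order was doxorubicin (40.8 CPM), late passage (9.60), PDL 25 (7.47), doxorubicin control (7.12), 10 Gy (4.50) and the control for 10 Gy (0.663). There, PDL 25 overlapped the doxorubicin control, which overlapped the 10 Gy group at its lower end. The 3 control groups of the second set, all WI-38 at PDL 25, therefore differed among themselves by as much as some treated groups did from their controls.

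Because the 2 cyclooxygenases do the same reaction, the share of PTGS2 in their summed level was computed per kb of exon (5791 bases for PTGS1 and 5269 for PTGS2, GENCODE 29). PTGS2 made up 0.703% and 0.414% of that sum with the empty vector and 78.5% and 70.7% with HRAS, the 2 libraries in which it exceeded PTGS1. With doxorubicin the share was 19.1% and 21.2% against 2.88% and 3.74% in the first experiment, and 6.66% and 23.8% against 4.40% and 5.59% in the repeat. IMR-90 went from 26.7% and 25.4% at PDL 15 to 7.88% and 8.87% after 10 Gy and to 3.75% and 3.504% at PDL 52. HAEC went from 11.1% and 12.5% to between 19.6% and 21.02%, while HUVEC went from between 31.9% and 35.9% to between 24.8% and 27.5%. After 10 Gy in WI-38 it was 2.55% and 1.34% against 0.384% and 0.349%, and at late passage 2.08% and 2.52% against 3.68% and 4.32%. These shares were not tested.

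**Figure D3:**
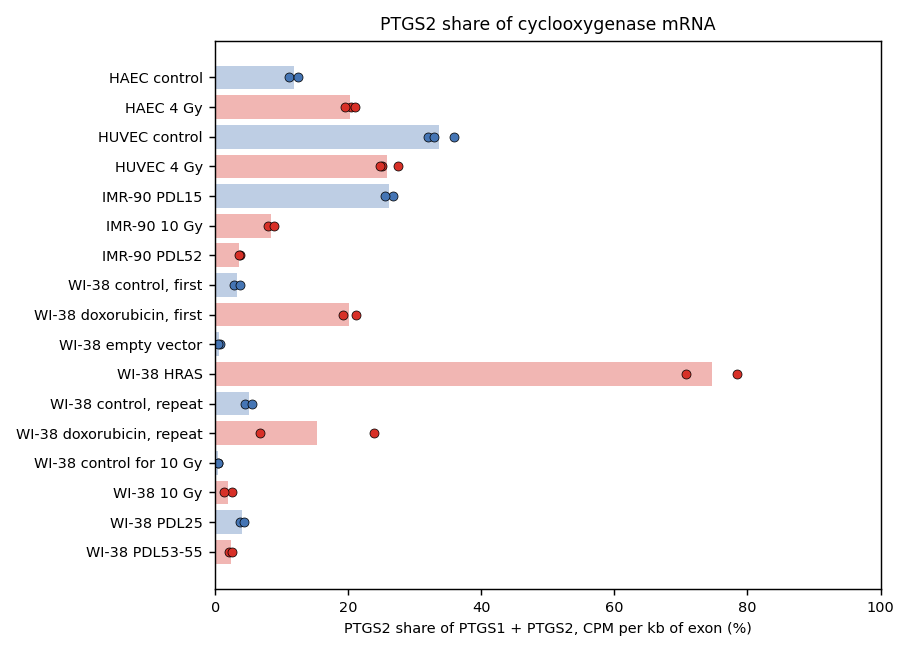
PTGS2 as a percentage of the summed PTGS1 and PTGS2 level in CPM per kb of exon (x axis) in the 17 groups (y axis); bars are group means and points are libraries, blue for control and red for treated or late passage. The HRAS libraries sit at 78.5% and 70.7%, and all other libraries are under 36%.

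PTGES, the inducible prostaglandin E synthase, was close to 0 in endothelium. In the 11 endothelial libraries it had 30 counts in all and at most 0.0683 CPM, and 3 of those libraries were at 0, where 3 counts would be 0.0151 to 0.0302 CPM. IMR-90 at PDL 15 stood at 29.9 and 28.8 CPM, IMR-90 after 10 Gy at 2.48 and 2.87 CPM and IMR-90 at PDL 52 at 1.97 and 1.23 CPM. The falls were 10.99-fold (log2 -3.46, SE 0.14, adjusted p = 1.31e-10) and 18.2-fold (log2 -4.19, SE 0.15, adjusted p = 3.35e-11), with no overlap. In WI-38 the first doxorubicin experiment raised PTGES from 2.85 and 2.90 CPM to 13.9 and 12.4 CPM (log2 2.19, SE 0.19, adjusted p = 4.79e-06), whereas HRAS lowered it from 3.72 and 5.55 CPM to 2.37 and 2.55 CPM (log2 -0.91, SE 0.19, adjusted p = 0.00196).

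In the second WI-38 set, PTGES rose after 10 Gy from 1.21 and 1.84 CPM to 4.61 and 5.98 CPM (log2 1.80, SE 0.39, adjusted p = 0.00551), a call lost without control replicate 1 (log2 1.53, adjusted p = 0.0652). At PDL 53 to 55 it fell from 5.55 and 5.20 CPM to 1.36 and 1.28 CPM (log2 -2.02, SE 0.39, adjusted p = 0.00304). The doxorubicin repeat had 9.62 and 3.79 CPM in treated libraries and 9.35 and 5.48 CPM in controls, which overlapped (log2 -0.15, SE 0.37, adjusted p = 0.891). PTGES was thus called higher in the first doxorubicin experiment and not in the repeat, and the difference itself was called (log2 -2.31, SE 0.48, adjusted p = 0.0045; -3.15 without repeat treated replicate 1).

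PTGES2 and PTGES3, the other synthases of prostaglandin E2, changed little in most models. PTGES3 is also the p23 co-chaperone of Hsp90, and 13.1% of its exon sequence, in stretches of 31 bases, also occurs in other genes, among them the pseudogene PTGES3P1, the highest such share among the members, so its counts are uncertain to that extent. PTGES3 fell in irradiated HAEC, from 110 and 105 CPM to 73.0, 77.0 and 75.0 CPM (log2 -0.52, SE 0.036, adjusted p = 2.15e-10), and in irradiated HUVEC, from 120, 130 and 133 CPM to 94.7, 93.3 and 89.2 CPM (log2 -0.47, SE 0.040, adjusted p = 8.50e-10). No irradiated library reached a control in either. PTGES2 fell by less, from 32.8 and 33.4 CPM to between 28.2 and 28.9 CPM in HAEC (log2 -0.21, SE 0.043, adjusted p = 3.60e-04) and from between 34.4 and 36.8 CPM to between 30.9 and 33.5 CPM in HUVEC (log2 -0.14, SE 0.043, adjusted p = 0.0126). The HUVEC call for PTGES2 was lost without control replicate 2 (adjusted p = 0.0968) or irradiated replicate 1 (adjusted p = 0.0855), and neither PTGES2 call held in the fit of all 37 libraries (adjusted p = 0.726 and 0.755).

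Relative to the empty vector, HRAS raised both genes. PTGES2 went from 34.7 and 45.3 CPM to 62.6 and 64.8 CPM (log2 0.67, SE 0.14, adjusted p = 0.00221) and PTGES3 from 39.3 and 28.5 CPM to 61.5 and 51.1 CPM (log2 0.73, SE 0.16, adjusted p = 0.00253). Untreated WI-38 of the same set, at 74.0 and 71.0 CPM, stood above both HRAS libraries for PTGES3. In IMR-90, PTGES2 was higher by 0.46 on the log2 scale after 10 Gy (SE 0.067, adjusted p = 5.12e-05) and by 0.42 at PDL 52 (SE 0.067, adjusted p = 1.25e-04), from 22.2 and 25 CPM to between 31.3 and 32.6 CPM, calls that the fit of all 37 libraries did not make (adjusted p = 0.0701 and 0.0996). The PTGES3 calls in IMR-90 were small and near the threshold, at log2 0.21 (SE 0.054, adjusted p = 0.00571) and 0.14 (SE 0.054, adjusted p = 0.0494). The first was lost without irradiated replicate 1 (adjusted p = 0.0541) or 2 (adjusted p = 0.05) and in the fit of all 37 libraries (adjusted p = 0.221). The second was lost without reference replicate 1 (adjusted p = 0.193), late replicate 1 (adjusted p = 0.102) or late replicate 2 (adjusted p = 0.0621), with a replicate block (adjusted p = 0.0557), with no filter on low counts (adjusted p = 0.0648), with the compared groups only (adjusted p = 0.106) and with all 37 libraries (adjusted p = 0.401). Doxorubicin lowered PTGES3 in the first experiment from 74.0 and 71.0 CPM to 47.8 and 48.6 CPM (log2 -0.59, SE 0.16, adjusted p = 0.0155), a call lost without any 1 of the 4 libraries (adjusted p between 0.0686 and 0.111). PTGES2 there was at 32.4 and 35.6 CPM against 26.7 and 27.5 CPM and did not pass (log2 -0.33, SE 0.14, adjusted p = 0.114), though it was called lower in the fit of the compared groups only (log2 -0.32, adjusted p = 7.93e-04). In the second set no call was made for either gene, with log2 fold changes from -0.58 to 0.60; the fit of all 37 libraries called both in the doxorubicin repeat (PTGES2 at adjusted p = 0.0423, PTGES3 at 0.00313).

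PTGIS, prostacyclin synthase, was the member that rose most with radiation in endothelium. HAEC went from 0.724 and 0.936 CPM to 4.42, 4.45 and 4.98 CPM, 5.65-fold higher (log2 2.50, SE 0.14, adjusted p = 8.57e-12), and HUVEC from 1.32, 1.32 and 0.747 CPM to 2.25, 2.13 and 2.08 CPM (log2 0.93, SE 0.17, adjusted p = 7.73e-05). All irradiated libraries stood above all controls, and the response was 1.56 log2 units lower in HUVEC than in HAEC (SE 0.25, adjusted p = 2.80e-05). PTGIS shares 7.23% of its exon stretches with other genes, and PTGES shares 7.99%.

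In fibroblasts PTGIS fell at late passage in both strains. IMR-90 at PDL 15 had 7.26 and 6.53 CPM, and at PDL 52 only 0.0597 and 0.0335 CPM, from 10 and 5 counts (log2 -7.16, SE 0.29, adjusted p = 9.99e-11). WI-38 went from 1.01 and 0.713 CPM at PDL 25 to 0.0144 and 0.0269 CPM, from 4 and 9 counts, at PDL 53 to 55 (log2 -5.33, SE 0.55, adjusted p = 1.85e-05). Irradiated IMR-90 stood at 0.136 and 0.260 CPM (log2 -5.14, SE 0.23, adjusted p = 3.37e-10), and HRAS lowered PTGIS from 0.348 and 0.526 CPM to 0.0415 and 0.0581 CPM, 6 and 7 counts (log2 -3.12, SE 0.55, adjusted p = 5.84e-04). With so few counts the fitted folds of these 4 falls are loose, though no library of a lowered group reached its reference.

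After 10 Gy in WI-38, PTGIS rose from 0.656 and 1.15 CPM to 2.08 and 3.22 CPM (log2 1.56, SE 0.42, adjusted p = 0.0212). The call was lost without control replicate 1 (adjusted p = 0.196), without irradiated replicate 2 (adjusted p = 0.118) and in the fit of the compared groups only (adjusted p = 0.0532). With doxorubicin PTGIS was at 0.868 and 1.18 CPM against 0.703 and 0.300 CPM in the first experiment (log2 1.03, SE 0.41, adjusted p = 0.0816) and at 1.58 and 0.957 CPM against 0.733 and 1.28 CPM in the repeat (log2 0.33, SE 0.41, adjusted p = 0.735). The first of these passed without control replicate 1 (log2 1.77, adjusted p = 0.0214) and in the fit of the compared groups only (adjusted p = 0.026).

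HPGD, the enzyme that inactivates prostaglandins, was at 0 in 32 of 37 libraries, and its 16 counts in all came from 5 fibroblast libraries of at most 4 counts each. A count of 0 was taken to allow up to 3 counts, or 0.00832 to 0.0302 CPM depending on the library, which covers counting error only. This limit treats counts as independent. Low counts were mostly even in every library, and all non-zero HPGD counts were 2 or 4, so the limit may be too low. No direction could be given for HPGD in any model at this depth.

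The responses of 2 WI-38 models were compared directly within the first set. All 7 tested members differed between HRAS and doxorubicin, against 35.6% of all genes. PTGS2 (3.52, SE 0.27, adjusted p = 1.98e-06) and PLA2G4A (1.46, SE 0.26, adjusted p = 0.00108) responded more strongly upward with HRAS, in log2 units. PTGS1 (-2.68, SE 0.21, adjusted p = 2.58e-06), PTGES (-3.10, SE 0.27, adjusted p = 4.97e-06) and PTGIS (-4.16, SE 0.68, adjusted p = 5.99e-04) went lower with HRAS than with the drug, PTGIS by -4.89 without doxorubicin control replicate 1. PTGES2 (1.00, SE 0.20, adjusted p = 0.00232) and PTGES3 (1.32, SE 0.22, adjusted p = 7.31e-04) went higher. Relative to the empty vector, HRAS thus raised PTGS2 and lowered PTGES, and doxorubicin in that set raised PTGS2 and PTGES together. PTGES with HRAS, at 2.37 and 2.55 CPM, was only slightly below the untreated cells, at 2.854 and 2.905 CPM. Each response was measured from its own control, and these controls differed. Mean levels with the empty vector and in untreated cells were 0.839 and 3.53 CPM for PLA2G4A, 0.405 and 1.73 for PTGS2 and 33.9 and 72.5 for PTGES3. PTGS1 (81.9 and 55.6), PTGES (4.635 and 2.88) and PTGES2 (40.0 and 34.0) were higher with the vector, and PTGIS was at 0.437 and 0.501. The part of the vector in these differences was not tested.

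Between the doxorubicin experiments 2 of 7 members differed in response, against 4.42% of all genes, PTGES as given above and PTGES3 (1.21 log2 units higher in the repeat, SE 0.27, adjusted p = 0.00991). The PTGES3 difference was lost without first-experiment treated replicate 1 (adjusted p = 0.0532) or repeat treated replicate 2 (adjusted p = 0.0624). For PTGS2 the responses differed by -1.16 log2 units (SE 0.53, adjusted p = 0.274), which became -2.37 without repeat treated replicate 2 (adjusted p = 4.46e-04) and was called with no filter on low counts (adjusted p = 0.00729). Experiment and kind of library cannot be told apart here.

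Radiation responses differed between WI-38 and IMR-90 for 5 of 7 members, against 19.9% of all genes, all higher in WI-38. PTGS2 differed by 7.27 log2 units (SE 0.60, adjusted p = 5.12e-08), PTGIS by 6.62 (SE 0.60, adjusted p = 1.58e-07), PTGES by 5.18 (SE 0.51, adjusted p = 4.36e-07), PLA2G4A by 3.98 (SE 0.41, adjusted p = 8.02e-07) and PTGS1 by 2.91 (SE 0.24, adjusted p = 3.69e-08). The median of all genes in this test was -0.20. Late-passage responses differed for 4 of 7, against 11.9% of all genes, PTGS2 by 5.85 (SE 0.58, adjusted p = 1.04e-06), PTGS1 by 3.42 (SE 0.24, adjusted p = 1.35e-08), PLA2G4A by 3.35 (SE 0.40, adjusted p = 1.11e-05; 3.95 without late IMR-90 replicate 2) and PTGES by 2.15 (SE 0.49, adjusted p = 0.00618). PTGIS, which fell in both strains, differed by 1.84 (SE 0.80) and did not pass (adjusted p = 0.165). Both tests rest on the PDL 15 libraries described above, and the strain cannot be told apart from the kind of library.

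Before treatment, HAEC and HUVEC differed in 2 of 7 tested members, against 20.8% of all genes. PTGS1 was 2.96-fold higher in HAEC (log2 1.57, SE 0.094, adjusted p = 1.97e-12) and PTGS2 slightly lower (log2 -0.35, SE 0.11, adjusted p = 0.0277), the latter lost without either HAEC control (adjusted p = 0.264 and 0.0523) or without HUVEC control replicate 3 (adjusted p = 0.095). Control endothelium and control fibroblasts (IMR-90 at PDL 15 and WI-38 of the first experiment) differed in 6 of 7, against 58.2% of all genes, so a call here sets no member apart. PTGES stood at no more than 0.0263 CPM in the 5 endothelial controls and at 2.85 to 29.9 CPM in the 4 fibroblast controls (adjusted p = 1.11e-19). PLA2G4A (log2 0.90, SE 0.11, adjusted p = 1.89e-07) and PTGES3 (log2 0.66, SE 0.073, adjusted p = 1.52e-08) were higher in endothelium. The 2 fibroblast strains were far apart in PTGS2 too, at 114 and 94.0 CPM in IMR-90 and 1.49 and 1.98 CPM in WI-38. The mean of both strains thus hides more than it shows for PLA2G4A and PTGS2, and medium, donor and cell kind cannot be told apart.

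Compared per kb of exon, PTGES3 was the highest member in both endothelial controls, at 31.6 CPM per kb in HAEC and 37.6 in HUVEC. PTGS1 followed in HAEC at 12.96 CPM per kb, whereas in HUVEC it was at 4.54, below PTGES2 at 11.6 and PLA2G4A at 8.34. In IMR-90 at PDL 15, PTGS1 led at 56.0 CPM per kb, followed by PTGS2 at 19.8, PTGES3 at 16.3 and PTGES at 15.5. PTGS1 was also the highest member in all 6 groups of the second WI-38 set, at 25.4 to 77.2 CPM per kb.

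The remainder of the pathway was followed with 37 matched genes: lipases, the annexin inhibitor, other synthases and reductases, transporters, receptors and the lipoxygenase branch. HAEC had 10 of 31 tested genes higher and 6 lower (19.7% and 19.9% of all genes), HUVEC 15 and 5 of 30 (18.6% and 20.1%), IMR-90 after 10 Gy 8 and 14 of 33 (26.6% and 22.5%), and IMR-90 at PDL 52 7 and 17 of 33 (26.6% and 23.5%). In WI-38, the first doxorubicin experiment had 9 of 32 higher and 5 lower (13.6% and 13.2%), HRAS 12 and 6 of 32 (27.1% and 18.9%), and the repeat 5 and 0 of 36 (3.18% and 2.26%), with 11 and 1 at an unadjusted p under 0.05. After 10 Gy there were 8 and 2 of 36 (8.89% and 6.09%), and at late passage 6 and 1 of 36 (5.8% and 6.82%). Several of these counts lie near the share of all genes, among them the lower ones in HAEC and the higher ones after 10 Gy in IMR-90. Their median log2 fold changes, in the same order, were 0.26, 0.34, -0.16, -0.43, 0.25, 0.23, 0.30, 0.31 and 0.52, beside 0.0093, 0.014, -0.020, -0.039, 0.015, 0.071, 0.036, -0.064 and 0.013 over all genes.

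Among lipases, PLA2G4C, a calcium-independent cytosolic phospholipase A2, rose in HAEC (log2 1.77, SE 0.071, adjusted p = 3.05e-14), HUVEC (log2 1.13), both IMR-90 comparisons (log2 0.50 and 0.56), with doxorubicin in the first WI-38 experiment (log2 2.43, SE 0.26, adjusted p = 2.24e-05) and after 10 Gy in WI-38 (log2 3.29, SE 0.28, adjusted p = 2.22e-06). MGLL, monoacylglycerol lipase, fell by 0.77 on the log2 scale in HAEC, 0.36 in HUVEC, 0.78 with doxorubicin in the first experiment and 1.00 after 10 Gy in WI-38, and was higher by 1.83 and 1.80 in the IMR-90 comparisons. The 10 Gy fall of MGLL in WI-38 was lost without control replicate 2 (adjusted p = 0.0765). ANXA1, annexin A1, an inhibitor of phospholipase A2, was higher by 2.29 and 2.22 log2 units in the IMR-90 comparisons, in which PLA2G4A fell, and by 1.47 with HRAS, with which PLA2G4A rose, and was slightly lower in HUVEC (log2 -0.17; adjusted p = 0.617 in the fit of all 37 libraries).

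AKR1C3, a reductase that makes prostaglandin F2, rose in HAEC (log2 1.07), HUVEC (log2 1.33), the first doxorubicin experiment (log2 1.45), WI-38 after 10 Gy (log2 2.76), the doxorubicin repeat (log2 1.64, lost without control replicate 1 at adjusted p = 0.0539 and without treated replicate 2 at adjusted p = 0.134, log2 0.98) and late-passage WI-38 (log2 1.69), and fell by 2.86 and 3.06 log2 units in the IMR-90 comparisons. AKR1B1, aldose reductase, rose in WI-38 with doxorubicin in the first experiment (log2 1.62), HRAS (log2 1.55), 10 Gy (log2 2.03), late passage (log2 1.33) and the doxorubicin repeat (log2 0.94), rose slightly in HAEC (log2 0.16) and HUVEC (log2 0.12), and fell in the IMR-90 comparisons (log2 -0.16 and -0.60). PTGDS, which makes prostaglandin D2, rose with doxorubicin in the first experiment (log2 2.08, SE 0.24, adjusted p = 5.60e-05) and after 10 Gy (log2 4.68, SE 0.33, adjusted p = 5.47e-07), fell with HRAS (log2 -4.45, SE 0.44, adjusted p = 6.85e-06; -3.56 and -6.27 without HRAS replicate 1 and 2) and fell at late passage in WI-38 (log2 -1.23, adjusted p = 0.0117; lost without late replicate 1 at 0.0747 or PDL 25 replicate 1 at 0.0815). It also fell in the IMR-90 comparisons (log2 -2.92 and -3.51). TBXAS1, thromboxane synthase, rose in late-passage WI-38 (log2 2.29), the doxorubicin repeat (log2 1.12), WI-38 after 10 Gy (log2 0.95) and HUVEC (log2 0.63), and fell in HAEC (log2 -0.44) and in IMR-90 after 10 Gy (log2 -1.91) and at PDL 52 (log2 -1.63). Of the exon stretches of PTGDS, AKR1B1 and AKR1C3, 21.9%, 13.9% and 7.17% occur in other genes too, for AKR1C3 mostly in AKR1C2 and AKR1C1.

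Of the receptors, PTGER2, the EP2 receptor for prostaglandin E2, fell with HRAS by 3.25 on the log2 scale (SE 0.15, adjusted p = 1.52e-08), with doxorubicin in the first experiment by 0.81 (SE 0.14, adjusted p = 8.71e-04) and in IMR-90 by 2.08 and 2.19. PTGER4, the EP4 receptor, fell in irradiated HAEC by 0.62 and in HUVEC by 0.43, and rose with HRAS (log2 0.83) and in late-passage WI-38 (log2 0.97). SLCO2A1, the prostaglandin transporter, rose in both irradiated endothelia, 7.56-fold in HAEC (log2 2.92, SE 0.12, adjusted p = 6.77e-14) and 4.27-fold in HUVEC (log2 2.10, SE 0.15, adjusted p = 4.94e-11). In the lipoxygenase branch, LTA4H, which makes leukotriene B4, rose in HAEC (log2 1.13, SE 0.035, adjusted p = 5.18e-16), HUVEC (log2 0.42) and with HRAS (log2 0.77), and fell in the IMR-90 comparisons (log2 -0.36 and -0.43).

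**Figure D4:**
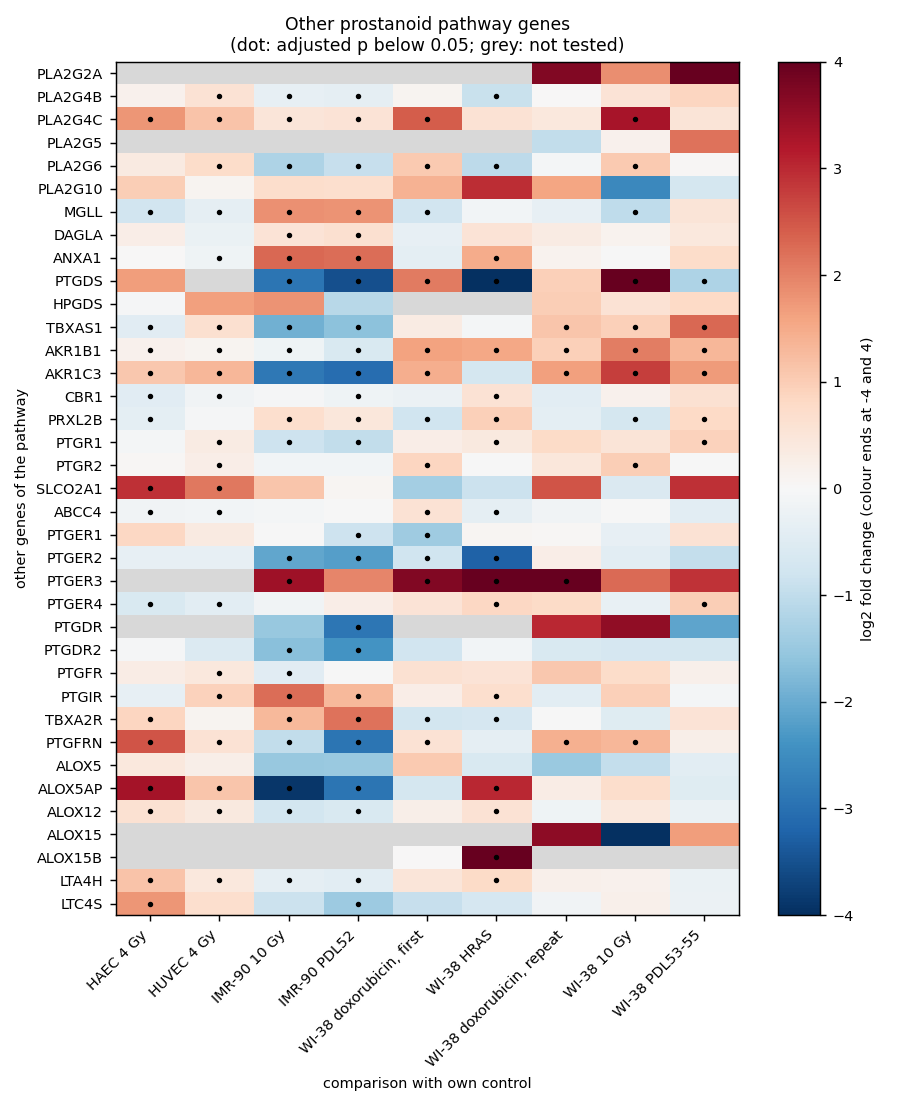
Log2 fold change (colour) of 37 other genes of the prostanoid pathway (y axis) in the 9 comparisons with the own control (x axis); dots mark an adjusted p below 0.05 and grey cells were not tested. AKR1C3 is at -2.86 and -3.06 in the IMR-90 columns and at 1.07 and 1.33 in the endothelial ones.

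The 9 log2 fold changes of PTGS2 were correlated with those of 11491 other genes expressed in all 5 sets. The highest Pearson r was found for CXCL8 (0.98), PLA2G4A (0.98), DDHD1 (0.97), ALDH3A2 (0.97) and NRG1 (0.97). CXCL8, the interleukin 8 gene, ran from -6.23 at PDL 52 in IMR-90 to 9.38 with HRAS, and PLA2G4A from -3.11 to 2.39, against -5.50 to 7.22 for PTGS2. The r is a description over 9 comparisons, of which the IMR-90 ones share their reference libraries. A member of the route, PLA2G4A, was thus among the 5 genes with the most similar pattern. HPGD could not be placed in this way because it was never tested.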

How the data were processed

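Total RNA of 37 libraries was sequenced after ribosomal RNA depletion, per the labels' protocols. The deposited values are raw counts, 1 whole number for each gene in each library. For these counts, bcl2fastq, cutadapt, STAR 2.4, featureCounts and the build hg19 are listed per the submitters' processing notes. Strand use and annotation release: not given in the sources used here. Of counts from 1 to 20, 61.3% to 70.2% were even in every library; whether the reads of a pair were counted apart is not given. Of 57773 identifiers, 51996 were named by the table of gene names and 342 by GENCODE 29. The pathway gene ZADH2 and the marker PECAM1 matched none.

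The test was edgeR's quasi-likelihood test (edgeR 4.0.16, R 4.3.3) after filterByExpr and TMM, with Benjamini-Hochberg adjustment over all genes at 0.05, in 1 fit per set (HAEC, HUVEC, IMR-90, first and second WI-38), so that groups share 1 estimate of the spread. Differences of responses and control levels used joint fits. Standard errors were derived from the F statistic. Biological coefficients of variation (common) were 5.69% (HAEC), 6.94% (HUVEC), 8.41% (IMR-90), 16.3% (first WI-38 set) and 38.1% (second WI-38 set), so small changes are hardest to call in the last. Levels are CPM on TMM-scaled library sizes within a set. The fits were tested on simulated counts. Alternatives were DESeq2 1.42.0 (size factors, Wald test), no filter, a replicate block, other libraries in the fit, leaving out each library and plain CPM.

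All 8 members were named in every comparison; of other pathway genes up to 3 per direction and comparison with the smallest adjusted p qualified (their calls in the other comparisons are given without alternatives), and for likeness 5 genes with an average log2 CPM of at least 1 in each set. The genes FOS, EGR1, CXCL8, IL1B, MKI67 and CDKN1A were chosen after their values were seen. Members and lists were chosen with earlier results of these data known. Sequence positions are on GRCh38 and are not joined to the hg19 counts by position.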

Additional observations from a re-analysis of the deposited data

Results flagged for a closer look

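For 20 pairs of a member and a pair of models, the test of the difference between the responses itself passed an adjusted p of 0.05 (edgeR quasi-likelihood test), and the values are log2 differences. HRAS minus doxorubicin in WI-38 gave 3.52 for PTGS2, -2.68 for PTGS1, 1.32 for PTGES3, 1.46 for PLA2G4A, -4.16 for PTGIS, 1.00 for PTGES2 and -3.10 for PTGES. HUVEC minus HAEC after 4 Gy gave 1.44 for PTGS1 and -1.56 for PTGIS. The doxorubicin repeat minus the first experiment gave 1.21 for PTGES3 and -2.31 for PTGES. WI-38 minus IMR-90 after 10 Gy gave 7.27 for PTGS2, 2.91 for PTGS1, 3.98 for PLA2G4A, 6.62 for PTGIS and 5.18 for PTGES. At late passage WI-38 minus IMR-90 gave 5.85 for PTGS2, 3.42 for PTGS1, 3.35 for PLA2G4A and 2.15 for PTGES. The last 2 contrasts rest on the 2 IMR-90 libraries at PDL 15, in which CXCL8 and FOS were also high, and the part of that state was not tested.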

How the results depend on the processing

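DESeq2's size factors and Wald test gave the same number of called members as edgeR in every comparison. In the fit of all 37 libraries 3 members were called in HAEC, 2 in HUVEC and 4 in the doxorubicin repeat. With only the compared groups in the fit there was 1 in the repeat and 2 after 10 Gy in WI-38. That edgeR fit also lost PTGES3 at PDL 52 in IMR-90 (adjusted p = 0.106). It gained PTGES2 (adjusted p = 7.93e-04) and PTGIS (adjusted p = 0.026) in the first doxorubicin experiment. Whether replicate numbers pair the libraries was not settled. Correlations of same-numbered deviations were between -0.064 and 0.12, the highest for HRAS and the empty vector. With 2 libraries in each group both replicates give the same value, so these correlations cannot decide it. With a replicate block the PTGES3 call at PDL 52 in IMR-90 was lost (adjusted p = 0.0557, edgeR), 1 member was called between HAEC and HUVEC controls, and PTGES2 changed sign, uncalled, at 0.0035 there, -0.013 between endothelium and fibroblasts and -0.028 for the late-passage difference.

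Leaving out 1 library gave 0 to 2 called members in the doxorubicin repeat (0 without control replicate 1, where 2 passed an unadjusted p of 0.05 in edgeR), 1 to 4 after 10 Gy in WI-38 (1 without control replicate 1), 1 to 2 for the doxorubicin difference (1 without first-experiment treated replicate 1) and 1 to 2 between HAEC and HUVEC controls. Log2 values that changed sign, called in no case, ranged in the doxorubicin repeat from -0.97 to 0.37 (PTGES) and -0.071 to 0.79 (PTGIS). At late passage in WI-38 they ranged from -0.16 to 0.90 (PTGES2), -0.087 to 0.24 (PTGES3) and -0.015 to 0.54 (PLA2G4A). For HUVEC minus HAEC the ranges were -0.16 to 0.020 (PTGS2) and -0.030 to 0.079 (PTGES3). The doxorubicin difference ran from -0.19 to 0.082 (PTGS1) and -0.54 to 0.15 (PTGES2), and the late-passage difference from -0.57 to 0.47 (PTGES2) and -0.23 to 0.11 (PTGES3). The cause was not tested. Of 650 leave-out values of member fold changes, 599 kept their direction and side of the threshold, 26 lost a call, 3 gained one and 22 changed sign. Of 546 values under other settings these were 520, 17, 6 and 3. At low counts (HPGD, PTGIS after its falls, PTGES in endothelium) depth limits what can be said.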
